A study of Arabidopsis thaliana with 12 samples.

Results

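The wild type response to dehydration was measured in Arabidopsis thaliana as the signal of 22746 probe sets on ATH1 GeneChip arrays, microarrays on which each probe set reads 1 transcript or a few similar ones. The comparison took 6 of the 12 arrays of the study: 3 from Col-0, the standard laboratory wild type, after 2 h of dehydration and 3 from Col-0 under control conditions. The arrays were chosen by the genotype, condition and replicate number in their labels, which name the condition drought. The other 6 arrays are of siz1-3, a mutant of the SUMO E3 ligase gene SIZ1, after 2 h of dehydration and under control conditions, with 3 of each. By the labels the plants were 3 weeks old, written as 21 days for Col-0 control replicate 1. Neither a tissue nor growth conditions are stated, and nothing says that replicates came from separate batches of plants. The p-values thus reflect the variation among these arrays alone, part of which may be technical.

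A plant that loses water makes abscisic acid, a hormone that closes stomata and switches on genes for protective proteins, compatible solutes and detoxification. Dehydrins and other late embryogenesis abundant (LEA) proteins, which also accumulate in drying seeds, are the best known of the induced products. Water shortage is also known to slow cell expansion and division and to reduce photosynthesis in leaves. The gene groups below are ordered from protection and metabolism through hormones and protein turnover to the chloroplast, the cell wall and transcription factors.

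The median signal of an array was 71.3 to 72.7 after dehydration and 84.7 to 87.1 in controls, while the trimmed mean of every array was 250.02. Arrays correlated across probe sets at 0.980 to 0.987 within the dehydrated group, at 0.984 to 0.986 within controls, and at 0.903 to 0.913 between the groups. The ratio of 3' to 5' signal of the actin control transcript was 15.7, 20.2 and 12.9 in dehydrated replicates 1 to 3, against 8.89, 10.9 and 15.5 in controls. That ratio was 1.14 to 1.39 after dehydration and 1.08 to 1.34 in controls for the GAPDH control transcript. The part of these differences in the results was not tested. Of 3 measured root genes, the bright one, PYK10 (a beta-glucosidase of endoplasmic reticulum bodies), had mean signals of 964 after dehydration and 926 in controls, and the other 2, the expansins EXPA7 and EXPA18, were dim in both groups (9.94 and 2.37 after dehydration, 9.7 and 19.6 in controls).

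Of the 22746 probe sets, 3081 (13.5%) were higher and 5348 (23.5%) were lower after dehydration by limma's moderated test at an adjusted p under 0.05. At least 2-fold changes made up 1416 of the higher calls (6.23%) and 1813 of the lower calls (7.97%). Among the brighter 60% of probe sets, 19.9% were called higher and 32.8% lower. Over all probe sets the median change was -0.09 on the log2 scale. Subtracting each array's median moved changes up by 0.22 at the median and turned the balance of the calls, of which 36.6% were higher in the scaling used here and 58.7% with medians subtracted. The 3 dehydrated and 3 control arrays did not overlap for 45.5% of all probe sets. Groups of genes are therefore read below against the share called among all probe sets and by their largest changes. A called gene is one whose probe set passed that test. Signals are means ± SD of 3 arrays in the array's arbitrary units, and a log2 fold change is dehydration over control on the log2(signal + 16) scale with its standard error from the model. Among the 1677 genes that carry a symbol or a description, 258 (15.4%) were called higher and 414 (24.7%) lower. Of 3 measured reference genes (TUB6, GAPC2 and PEX4) 2 were called lower, with a median log2 fold change of -0.40. With array medians subtracted, 1 of them was called lower and 1 higher. The dim root gene EXPA18 was called lower (log2 fold change -0.93), a call lost with a floor on low signals.

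**Figure D1:**
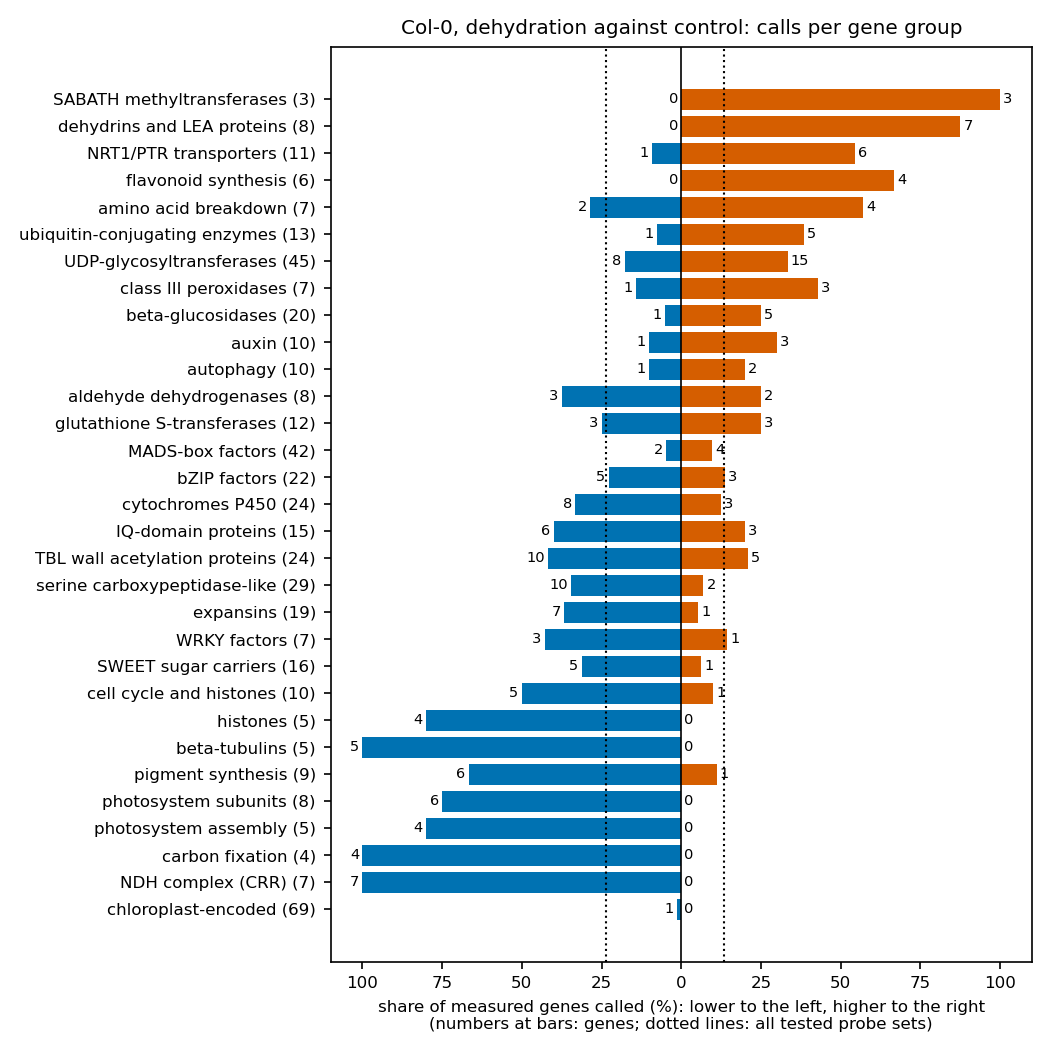
Share of the measured genes of each group called higher (orange, to the right) or lower (blue, to the left) in dehydrated Col-0 against control, in percent, with the number of genes at each bar and the number measured in brackets. Dotted lines mark the 13.5% of all probe sets called higher and the 23.5% called lower. The SABATH methyltransferases reach 100% on the right, followed by the dehydrins and LEA proteins at 87.5%, and the beta-tubulins, carbon fixation enzymes and NDH complex proteins reach 100% on the left. Of these, the methyltransferases, beta-tubulins and NDH complex proteins were put together after the values were seen.

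LEA proteins and dehydrins rose. Of 8 measured members of the list, 7 were called higher and COR15B was not called, with a median log2 fold change of 1.54. In a second list of 7 genes, partly the same, 5 were called higher and 1 lower, with a median of 0.84. LEA18, a group 4 LEA protein, read 161, 161 and 162 in dehydrated replicates 1 to 3, against 1.92, 1.24 and 24.1 in controls, a log2 change of 2.94 ± 0.31 (limma, adjusted p = 7.76e-06). Its relative AtLEA4-1 had 139 ± 16.9 after dehydration and 38.2 ± 33.9 in controls (1.68 ± 0.38 on the log2 scale). For both genes the lowest dehydrated array lay above the highest control array, and control replicate 3 was the highest of the controls. LEA4-5 and the dehydrin LTI30 had means of 1001 ± 93.9 and 4081 ± 218 after dehydration, against 52.4 ± 26.3 and 896 ± 94.2 in controls. A brighter member, LEA26 (AT2G44060), had 2862 ± 86.6 after dehydration and 1604 ± 217 in controls, a log2 fold change of 0.84 ± 0.12.

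COR15A, a chloroplast LEA protein, had a mean signal of 12690 ± 1215 after dehydration and 8371 ± 637 in controls, a log2 fold change of 0.60 ± 0.16. COR47, a dehydrin, showed the largest gain of signal among called probe sets listed for exactly 1 gene, with 17007 ± 2288 after dehydration and 6436 ± 532 in controls. LEA27 (AT2G46140) rose to 139 ± 15.8 after dehydration, against 98.8 ± 12.9 in controls. Its call was lost in the Col-0 arrays alone and without any of 3 single arrays. HIRD11 (AT1G54410), a small histidine-rich dehydrin, fell to 5673 ± 311 after dehydration, against 7078 ± 468 in controls. The call of HIRD11 was marginal (log2 fold change -0.32 ± 0.11, limma, adjusted p = 0.0448) and was lost under 10 alternatives, among them both other scalings. LEA27 and HIRD11 were chosen after their values were seen.

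Enzymes that remove reactive aldehydes and reduce oxidised molecules moved in both directions. Of 8 aldehyde dehydrogenases, 2 were called higher (25%) and 3 lower (37.5%), against 13.5% and 23.5% of all probe sets. ALDH7B4, which oxidises aldehydes that arise from damaged lipids, read 6104, 6236 and 7275 in dehydrated plants and 969, 758 and 668 in controls, a log2 change of 3.02 ± 0.18 (limma, adjusted p = 4.05e-08). It had the second largest gain of signal among called probe sets listed for exactly 1 gene. ALDH10A8, of the betaine aldehyde dehydrogenase class, had 2404 ± 437 after dehydration and 1134 ± 115 in controls. ALDH11A3, a glyceraldehyde-3-phosphate dehydrogenase that makes NADPH, went the other way, with 744 ± 39.1 after dehydration against 1419 ± 18.9 in controls (-0.92 ± 0.10 on the log2 scale), and ALDH22A1 had 129 ± 35.2 and 232 ± 26.5 in the same order.

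In the ascorbate and glutathione cycle, ATMDAR2, which regenerates ascorbate, had 2090 ± 305 after dehydration and 780 ± 106 in controls, a log2 fold change of 1.40 ± 0.13. GR1, a glutathione reductase, had 623 ± 80.1 and 337 ± 38.8 in the same order (0.86 ± 0.13). The second glutathione reductase, listed as GR, fell by 0.50 ± 0.15 on the log2 scale, a call lost when array medians were subtracted and without any of 3 single arrays. MSRB9, which repairs oxidised methionine in proteins, rose with a log2 fold change of 2.05 ± 0.24. Its dehydrated arrays were uneven, with 1036, 887 and 1868, and all lay above the controls at 225, 283 and 334. Of 12 glutathione S-transferases 3 were called higher and 3 lower (25% each), against 13.5% and 23.5% of all probe sets. With array medians subtracted 4 were higher and 1 lower, and with a floor on low signals 1 was higher and 3 lower. GSTU27 was the most changed of the 12 and fell to 82.8 ± 17.3 after dehydration, against 473 ± 14.6 in controls (-2.32 ± 0.14). GSTU28 was dim, with 50.5 ± 13.4 after dehydration and 22.9 ± 5.51 in controls, and lost its call with a floor on low signals and without dehydrated replicate 1. Of 10 glutaredoxins and thioredoxins 1 was called higher (10%) and 2 lower (20%), against 13.5% and 23.5% of all probe sets. The glutaredoxin GRXC2 had 4485 ± 329 after dehydration and 3524 ± 194 in controls, a call lost under quantile normalization, in the Col-0 arrays alone and without any of 5 single arrays. ATMDAR2, MSRB9 and GR were chosen after their values were seen.

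Genes of amino acid breakdown rose more often than they fell, with 4 of 7 called higher and 2 lower. LKR/SDH (AT4G33150), the bifunctional enzyme that opens lysine breakdown, read 1964, 2034 and 2085 after dehydration and 163, 216 and 130 in controls. Its log2 fold change was 3.49 ± 0.15 (limma, adjusted p = 4.77e-09), and no control array came near the dehydrated ones. MGL, which cleaves methionine, had 866 ± 150 after dehydration and 134 ± 35.8 in controls (2.57 ± 0.19). The 2 subunits of 1 enzyme of leucine breakdown, methylcrotonoyl-CoA carboxylase, moved apart. MCCA, its biotin-carrying subunit, had 826 ± 59.8 after dehydration and 372 ± 25.7 in controls, and MCCB fell to 307 ± 17.9 against 538 ± 73.7. Their log2 fold changes were 1.12 ± 0.12 and -0.77 ± 0.13.

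NDB2, an alternative NADH dehydrogenase that feeds electrons to the respiratory chain without pumping protons, had 490 ± 66.7 after dehydration and 65.7 ± 11.9 in controls, a log2 fold change of 2.63 ± 0.13. The cytochrome c gene CYTC-2 rose with a log2 fold change of 1.54 ± 0.15 and SDH1-1, a subunit of succinate dehydrogenase, with 1.38 ± 0.13. DELTA-OAT, which turns ornithine into a precursor of glutamate and proline, had 480 ± 36.9 after dehydration and 216 ± 31.4 in controls. CYTC-2, SDH1-1 and DELTA-OAT were chosen after their values were seen, and mitochondrial genes were not counted as a group.

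Of 18 measured sugar carriers of the SWEET and tonoplast monosaccharide transporter families, 7 were called lower, 1 higher and 10 neither way, with a median log2 fold change of -0.24. The SWEET family alone had 5 lower and 1 higher among 16. In a shorter list of 11 carriers with the same 7 lower calls, 4 were called lower and 2 higher when array medians were subtracted. SWEET4, a sugar efflux carrier, read 2026, 1535 and 1650 in dehydrated plants and 159, 186 and 173 in controls, a log2 change of 3.21 ± 0.12 (limma, adjusted p = 1.74e-09). TMT1, which loads hexoses into the vacuole, read 185, 178 and 176 after dehydration and 590, 560 and 531 in controls (-1.56 ± 0.10). SWEET16, a carrier of the vacuole membrane, had 100.1 ± 14.2 and 213 ± 12.5 in the same order, and SWEET13, which exports sucrose, 30.7 ± 7.78 and 66.2 ± 7.93.

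Of 4 measured genes of starch and sucrose metabolism 2 were higher and 2 lower. APL3, a large subunit of the enzyme that commits glucose to starch, rose with a log2 fold change of 1.03 ± 0.25, and its dehydrated arrays spread from 73.1 to 166. The sucrose phosphate synthase gene ATSPS4F fell to 39.8 ± 17.5 after dehydration, against 135 ± 7.25 in controls, and DPE1, a starch-degrading transferase of the chloroplast, to 373 against 595 (means of 3 arrays).

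Transporters of the NRT1/PTR family, which carry nitrate, peptides, hormones and glucosinolates, were higher in 6 of 11 cases and lower in 1, with a median log2 fold change of 0.95. NPF6.4 (AT3G21670) read 1643, 1699 and 1675 after dehydration and 206, 128 and 173 in controls, a log2 fold change of 3.21 ± 0.17. GTR1, a glucosinolate transporter, had 2773 ± 360 after dehydration and 550 ± 92 in controls (2.31 ± 0.16), and GTR2, its close relative, rose with 1.14 ± 0.14. GTR2 was chosen after its values were seen. This family was put together after the values were seen, as were those of methyltransferases, NDH complex proteins, photosystem assembly factors, wall acetylation proteins, beta-tubulins, TON1 recruiting motif proteins, carboxypeptidase-like proteins, MADS-box factors and IQ-domain proteins below.

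**Figure D2:**
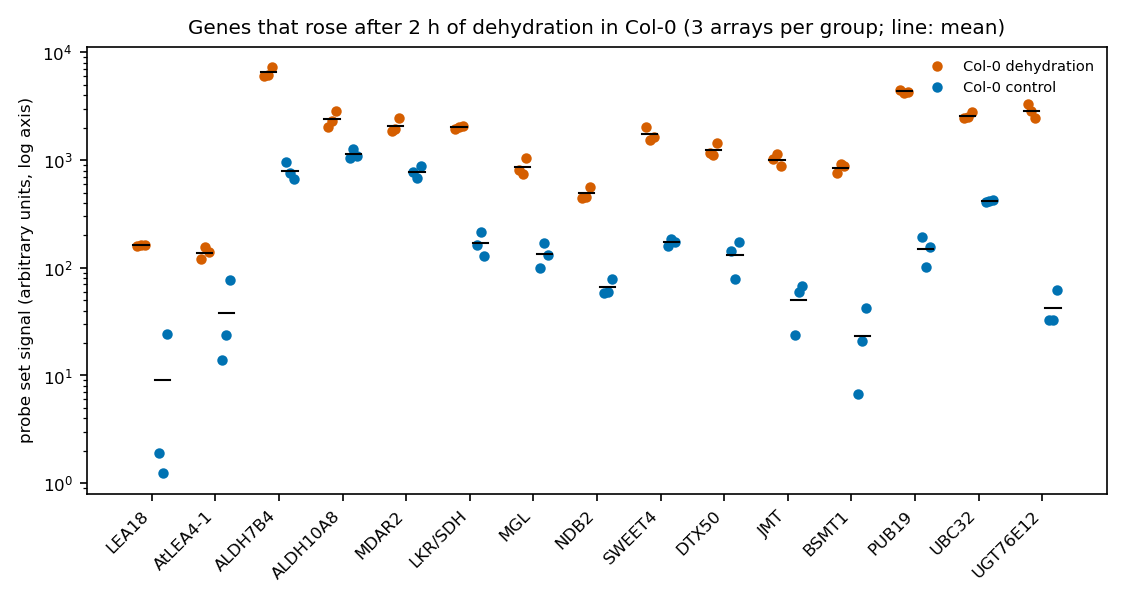
Signal on each of 3 arrays per group (points, log axis, arbitrary units) and group mean (line) for 15 genes that rose, with dehydrated Col-0 in orange to the left of Col-0 control in blue. In each gene the 3 dehydrated arrays lie above the 3 control arrays, which was a condition of choice for genes taken by rank. BSMT1 at 854 against 23.2 and UGT76E12 at 2873 against 42.5 show the widest gaps between means among the 15 genes drawn.

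Hormone genes were measured in small numbers. Of 2 measured genes of abscisic acid synthesis and breakdown, 1 was called lower and UGT71B6 was not called. UGT71C5, which inactivates the hormone by adding glucose, fell to 142 ± 21.7 after dehydration, against 324 ± 24.4 in controls (log2 fold change -1.11 ± 0.15). The efflux carrier DTX50 (AT5G52050), which exports abscisic acid from cells, read 1167, 1120 and 1427 in dehydrated plants and 143, 78.1 and 175 in controls. The change was 3.14 ± 0.23 on the log2 scale (limma, adjusted p = 2.71e-07).

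All 3 measured methyltransferases of the SABATH family, which methylate plant hormones and other small acids, rose. JMT, which makes methyl jasmonate, read 1017, 1130 and 881 after dehydration and 23.5, 59.3 and 67.4 in controls, a log2 fold change of 4.02 ± 0.31. BSMT1, which makes methyl salicylate and methyl benzoate, read 765, 915 and 881 against 6.79, 20.9 and 41.9 in controls (4.57 ± 0.30), and NAMT1, which methylates nicotinate, 70.9, 58.7 and 59 against 9.94, 11.5 and 17.2 (1.45 ± 0.13). No dehydrated array of the 3 genes overlapped a control array. JRG21, named in the annotation as a jasmonate-regulated gene and chosen after its value was seen, had 2108 ± 579 after dehydration and 124 ± 82.4 in controls.

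Other jasmonate genes fell or were not called. ORA47, a transcription factor that activates jasmonate synthesis, read 185, 182 and 223 in dehydrated plants and 2196, 1323 and 1797 in controls, a log2 change of -3.05 ± 0.18 (limma, adjusted p = 5.41e-08). OPCL1, a CoA ligase of jasmonate synthesis, had 659 ± 129 after dehydration and 1078 ± 61.4 in controls, and its call was lost when array medians were subtracted. Of the 5 jasmonate genes 1 was called higher (JMT) and 2 lower, and PDF1.2 and THI2.1 were not called.

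The 3 gibberellin receptor genes did not move alike. GID1B had 294 ± 37.9 after dehydration and 63.6 ± 8.83 in controls, a log2 fold change of 1.96 ± 0.14. GID1A fell to 209 ± 49.9 against 324 ± 27.2 in controls, a call lost when array medians were subtracted, and GID1C was not called. Of 3 cytokinin genes, 2 were called higher and ARR15 was not called. The response regulator RR16 rose to 146 ± 29.8 after dehydration, against 49.5 ± 10.1 in controls, and UGT76C2, which inactivates cytokinins by adding glucose, rose by 0.91 ± 0.18 on the log2 scale. Of 10 auxin genes 3 were called higher and 1 lower. The most changed was GH3.3, which joins auxin to amino acids, with 482 ± 131 after dehydration and 106 ± 2.79 in controls. Of the auxin-response repressors, IAA18 and IAA30 had log2 fold changes of 1.43 ± 0.13 and 1.07 ± 0.14, and IAA29 fell to 126 ± 17.1 after dehydration, against 341 ± 88.4 in controls.

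Genes of protein turnover rose and fell. Of 13 ubiquitin-conjugating enzymes 5 were called higher and 1 lower. UBC32, an enzyme of the endoplasmic reticulum that helps to degrade misfolded proteins, read 2443, 2528 and 2776 after dehydration and 410.0, 417 and 424 in controls, a log2 change of 2.58 ± 0.10 (limma, adjusted p = 1.52e-09). UBC18 had 614 ± 26.1 after dehydration and 339 ± 18.1 in controls. Among 9 U-box ubiquitin ligases, 2 were higher (22.2%) and 4 lower (44.4%), against 13.5% and 23.5% of all probe sets. PUB19 read 4515, 4209 and 4330 in dehydrated plants, against 192, 103 and 157 in controls (4.75 ± 0.28), and PUB43 rose with a log2 fold change of 1.76 ± 0.14. The related pair PUB25 and PUB26, which act in immune signalling, fell by 2.04 ± 0.19 and 1.92 ± 0.22 on the log2 scale. The F-box protein gene SKP2A had 1570 ± 63.6 after dehydration and 218 ± 32 in controls.

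The autophagy list held 9 genes of the ATG8 family, small proteins that are anchored in the autophagosome membrane, among 10 members. ATG8H had 474 ± 65.7 after dehydration and 133 ± 24.3 in controls (log2 fold change 1.72 ± 0.17), APG8A rose with 0.79 ± 0.13, and ATG8E fell to 272 ± 36 against 514 ± 45.3 in controls. The other 7 were not called, although 4 of the 10 were called higher when array medians were subtracted. Serine carboxypeptidase-like proteins were called lower in 10 of 29 cases (34.5%) and higher in 2 (6.90%). The shares were 23.5% and 13.5% over all probe sets, and 32.8% and 19.9% over the brighter 60%. With array medians subtracted 8 were called lower. SCPL34 read 74.8, 59.9 and 84.6 after dehydration and 344, 282 and 342 in controls, a log2 fold change of -1.93 ± 0.14, and scpl42 fell by 1.51 ± 0.11, while scpl48 rose with 1.28 ± 0.15.

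Glycosyltransferases that attach sugars to hormones, flavonoids and foreign compounds were a large and mixed family, with 15 of 45 called higher and 8 lower. UGT76E12 read 3312, 2834 and 2473 in dehydrated plants and 33, 32.7 and 61.8 in controls, a log2 change of 5.65 ± 0.27 (limma, adjusted p = 7.98e-09). UGT76E11, a close relative, read 1038, 1028 and 841 after dehydration and 76.4, 80.3 and 125 in controls (3.19 ± 0.17). How far these probe sets read each other's transcripts was not tested. UGT87A2 had 1780 ± 134 and 157 ± 4.58 in the same order (3.37 ± 0.12), and UGT84A3 had 783 ± 70.0 and 110 ± 15.8. Among those that fell, UGT85A4 had 14.5 ± 5.42 after dehydration and 156 ± 17.8 in controls, and UGT73B1 21.6 ± 4.22 and 140 ± 18.8. UGT88A1, chosen after its values were seen, had 533 ± 37.9 against 1724 ± 39.8 in controls.

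Flavonoid genes rose in 4 of 6 measured cases, and the other 2 were not called. DFR and UF3GT, which make and decorate anthocyanins, had log2 fold changes of 2.49 ± 0.19 and 2.63 ± 0.23. The flavonol glycosyltransferases UGT78D1 and UGT78D2 changed less, with mean signals of 400 ± 76.1 and 251 ± 8.92 after dehydration, against 184 ± 6.09 and 141 ± 15.6 in controls. Of 3 genes of glucosinolate synthesis 1 was called higher, and BCAT4 and AOP3 were not called. UGT74B1, which completes the glucosinolate core, had 1966 ± 100.2 after dehydration and 796 ± 152 in controls.

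Other enzymes of specialised metabolism moved in both directions. Of 24 cytochromes P450, mostly of the CYP71B subfamily, 8 were lower (33.3%) and 3 higher (12.5%). The shares were 23.5% and 13.5% over all probe sets, and 32.8% and 19.9% over the brighter 60%. CYP71B29 had 9.16 ± 6.01 after dehydration against 105 ± 30.1 in controls (log2 fold change -2.26 ± 0.25), and CYP71B35 fell by 1.78 ± 0.26 on the log2 scale, while CYP84A4 and CYP71B37 rose with 1.41 ± 0.12 and 1.33 ± 0.19. The last pair was chosen after its values were seen. Of 2 genes on the lignin list, 1 was called higher and HCT was not called. CCR2, a cinnamoyl-CoA reductase, read 153, 89.9 and 84.9 after dehydration and 8.27, 17.1 and 27.3 in controls. PRX52, 1 of 3 class III peroxidases of 7 that rose, had 180 ± 21.5 and 22.3 ± 20.3 in the same order. The acyl-CoA ligase family member 4CL8 had 483 ± 38.6 and 44.5 ± 26.7. Of 20 beta-glucosidases that the family list matched, 5 were called higher and 1 lower. BGLU40 had 897 ± 248 after dehydration and 183 ± 5.22 in controls, and BGLU16 had 1641 ± 207 and 591 ± 66. BGLU44, which the family list did not match, had 773 ± 9.5 after dehydration and 3144 ± 159 in controls, a log2 fold change of -2.00 ± 0.12.

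Nuclear genes of the chloroplast mostly fell. Over the 33 genes of the lists on photosystem subunits, carbon fixation, pigment synthesis, the NDH complex and photosystem assembly, 27 were called lower and 1 higher, with a median log2 fold change of -0.80. The NDH complex and assembly groups were put together after the values were seen, with 7 of 7 and 4 of 5 lower. In the other lists the lower calls were 6 of 8 photosystem subunits, 4 of 4 carbon fixation genes and 6 of 9 pigment genes. Of the photosystem subunits, 3 were called lower when array medians were subtracted. LHCB4.2, an antenna protein of photosystem II, read 2033, 1674 and 2212 after dehydration and 9364, 9025 and 9259 in controls, a log2 change of -2.22 ± 0.13 (limma, adjusted p = 3.78e-08). It lost more signal than any other called gene with a symbol or description. PSBY had 5477 ± 205 after dehydration against 10733 ± 925 in controls, and PSBW and the ATP synthase subunit ATPC1 fell by 0.52 ± 0.10 and 0.48 ± 0.12 on the log2 scale. PSAN, a photosystem I subunit chosen after its values were seen, fell by 0.43 ± 0.12. The calls of ATPC1 and PSAN were lost when array medians were subtracted.

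The enzymes of pigment synthesis were lower in 6 of 9 cases and higher in 1. PORB, which reduces protochlorophyllide in the light, read 1556, 2158 and 1426 in dehydrated plants and 5714, 6363 and 6216 in controls, a log2 fold change of -1.84 ± 0.17. LYC, the lycopene cyclase of carotenoid synthesis, fell by 1.44 ± 0.16 on the log2 scale, CHLI2, a magnesium chelatase subunit, by 1.18 ± 0.13 and CHLM, the methyltransferase that follows it, by 1.11 ± 0.13. Geranylgeranyl reductase (AT1G74470), which makes the chlorophyll tail, had 2505 ± 87.1 after dehydration and 5771 ± 552 in controls. HEMA2, a glutamyl-tRNA reductase at the entry of the pathway, rose to 158 ± 16.4 against 88.7 ± 22.6 in controls. HEME2, a uroporphyrinogen decarboxylase, had 664 ± 73.9 and 1344 ± 99.2 in the same order. These last 3 genes were chosen after their values were seen.

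All 4 measured genes of carbon fixation and photorespiration were lower. PRK, the kinase that regenerates the substrate of Rubisco, read 2070, 2360 and 1880 after dehydration and 6281, 5339 and 6008 in controls (-1.48 ± 0.13 on the log2 scale). SBPASE, a phosphatase of the same cycle, and HPR, the hydroxypyruvate reductase of photorespiration, each fell by 0.67 on the log2 scale, with standard errors of 0.13 and 0.14.

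Factors that build photosynthetic complexes fell as well. All 7 measured proteins named for chlororespiratory reduction, subunits or assembly and RNA-editing factors of the NDH complex that cycles electrons around photosystem I, were lower. CRR42 read 105, 89.1 and 96.2 after dehydration and 390, 407 and 377 in controls (log2 fold change -1.85 ± 0.12), and the subunit NdhS had 723 ± 156 and 2195 ± 191 in the same order. NdhL, chosen after its values were seen, fell by 0.74 ± 0.14 on the log2 scale. The call of CRR22 rested on dim signals, 43.8, 34.3 and 5.58 against 83.4, 78.3 and 45 in controls, and was lost under both other scalings, in the Col-0 arrays alone and without any of 3 single arrays. Of 5 photosystem II and cytochrome b6f assembly factors 4 were lower. LPA19 fell by 1.47 ± 0.11, CCB3 by 1.57 ± 0.20 and LPA66 by 1.24 ± 0.14 on the log2 scale. CaS, a calcium sensor of the thylakoid membrane that was chosen after its values were seen, had 297 ± 53.7 after dehydration and 1010 ± 26.1 in controls.

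The genes of the chloroplast's own genome were measured on the same arrays. Of 69, 0 were called higher and 1 lower by limma, and at an unadjusted p under 0.05 0 were higher and 4 lower, with a median log2 fold change of -0.06 and a range of -0.82 to 0.70. The one called was psbE, a subunit of cytochrome b559 chosen after its values were seen, with 2224, 2678 and 2182 after dehydration and 3890, 3213 and 3236 in controls (-0.54 ± 0.18). It lost its call when array medians were subtracted, when 3 genes of the 69 were called higher, and without any of 3 single arrays. The labelling kit named in the labels copies RNA from its poly(A) tail, so chloroplast transcripts are read only as far as they carry one. Nuclear and chloroplast-encoded genes were not compared by a test.

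**Figure D3:**
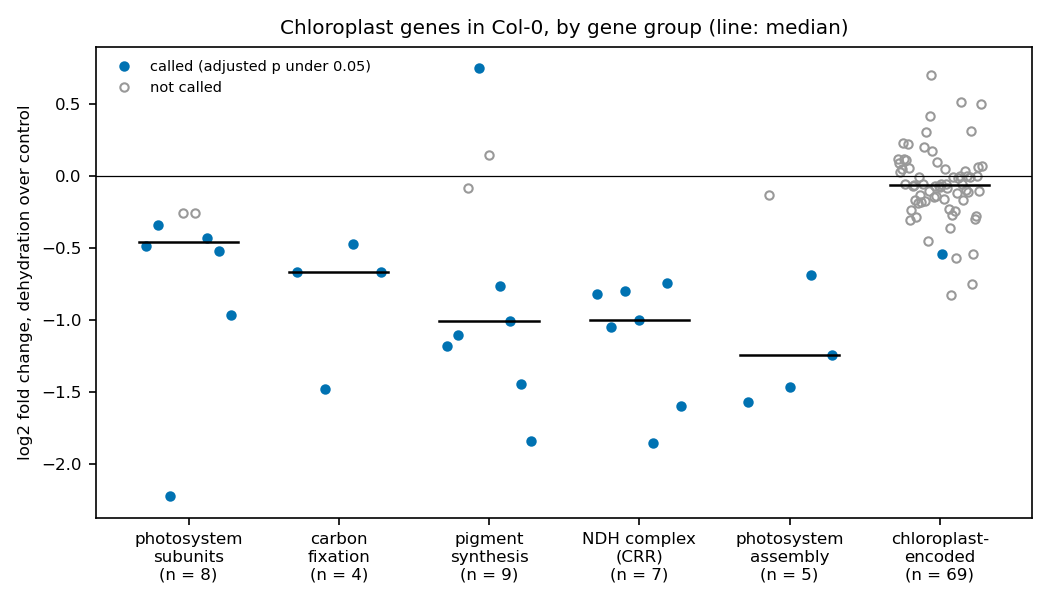
Log2 fold change of each measured gene (dehydrated Col-0 over control) in 5 groups of nuclear genes for chloroplast proteins and in the 69 chloroplast-encoded genes, with filled points for called genes, open points for genes not called and lines for medians. The nuclear groups have medians from -0.46 to -1.24, and the chloroplast-encoded genes lie around -0.06. The NDH complex and photosystem assembly groups were put together after the values were seen.

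Genes of the cell wall changed by large amounts in both directions. Of 19 expansins, proteins that loosen walls during growth, 7 were lower and 1 higher, against 5 and 4 when array medians were subtracted. EXPA16 was the one that rose, reading 1140, 1163 and 1310 after dehydration and 87.9, 69.9 and 84.5 in controls, a log2 change of 3.66 ± 0.14 (limma, adjusted p = 1.74e-09). EXPA8 fell most, to 30.8 ± 12.8 after dehydration, against 1387 ± 111 in controls. EXLA1 fell to 104 ± 16.4 after dehydration, against 396 ± 133 in controls, and EXPB1 to 32.4 ± 11.6 against 117 ± 35.9. Among 10 xyloglucan endotransglucosylases 2 were called lower (20%, against 23.5% of all probe sets).

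The trichome birefringence-like (TBL) family, whose members acetylate wall polysaccharides, had 10 of 24 members lower and 5 higher. TBL25 read 137, 128 and 186 in dehydrated plants and 885, 825 and 762 in controls, and TBL45 read 188, 172 and 169 against 816, 877 and 956. Their log2 fold changes were -2.35 ± 0.15 and -2.22 ± 0.15. TBL37 moved the other way, with 2466 ± 435 after dehydration and 340 ± 71 in controls (2.81 ± 0.18), and so did TBL26, with 337 ± 81.6 and 81.5 ± 29.6. IRX15-L, a xylan synthesis protein, had 452 ± 22.2 after dehydration and 39.6 ± 5.45 in controls, and the endoglucanase gene GH9B13 fell to 59.5 ± 4.1 against 273 ± 69.4. EXO, a cell surface protein of growing tissue, fell to 37.1 ± 1.78 after dehydration, against 296 ± 37.2 in controls, and THE1, a receptor kinase that monitors the wall, to 61.8 ± 21.3 against 219 ± 33.6. EXO and THE1 were chosen after their values were seen.

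On the plant surface, DEWAX (AT5G61590), a repressor of wax genes, read 145, 126 and 121 after dehydration and 3316, 2824 and 3161 in controls, a log2 change of -4.41 ± 0.13 (limma, adjusted p = 7.08e-10). WSD1, the enzyme that makes wax esters, read 121, 147 and 99.2 in dehydrated plants and 2.09, 2.1 and 5.39 in controls (2.84 ± 0.19). Of the 3 genes on the wax and cutin list, 1 was called higher and 1 lower, and SHN3 was not called. CER26 (AT4G13840), which acts in the elongation of wax acids and was chosen after its values were seen, had 286 ± 34.5 after dehydration and 900 ± 104 in controls.

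All 5 measured beta-tubulin genes fell, with a median log2 fold change of -0.90. TUB5 read 714, 616 and 675 after dehydration and 2009, 1944 and 2104 in controls (-1.57 ± 0.13). TUB1 had 86 ± 12.1 and 213 ± 11.7 in the same order, and the smallest changes, those of TUB7 and TUB9 at -0.53 ± 0.13 and -0.43 ± 0.15, lost their calls when array medians were subtracted. TUB9, chosen after its values were seen, also lost it in the Col-0 arrays alone and without any of 3 single arrays. Beta-tubulin genes are similar in sequence, and how far their probe sets read each other's transcripts was not tested. WLIM1, which bundles actin filaments and was chosen after its values were seen, fell to 562 ± 18.3 against 1802 ± 264 in controls. Among 14 TON1 recruiting motif proteins, which direct microtubules and cell shape, 2 were higher (14.3%) and 4 lower (28.6%), against 13.5% and 23.5% of all probe sets. TRM15 rose with a log2 fold change of 2.44 ± 0.18, and TRM26 fell by 1.66 ± 0.16.

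Of 5 histone genes 4 were lower. The linker histones HON4 and HIS1-3 had mean signals of 202 ± 11.8 and 87.7 ± 12 after dehydration, against 570 ± 57.7 and 261 ± 38.3 in controls. The core histone HTB2 fell by 0.60 ± 0.12 on the log2 scale. Of 6 other cell cycle genes 3 were lower and 1 higher. PRL, a subunit of the replicative helicase, fell to 55.2 ± 7 against 158 ± 4.9 in controls, and AUR1, a mitotic kinase, to 75.2 ± 9.95 against 185 ± 31.5. AUR3, another kinase of that family that was chosen after its values were seen, was called higher at a log2 fold change of 0.45 ± 0.14, a call lost without any of 4 single arrays.

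Of 4 genes of stomatal development 2 were lower, and SPCH and MUTE were not called. STOMAGEN, a peptide that raises the number of stomata, read 176, 202 and 148 after dehydration and 486, 477 and 416 in controls (log2 fold change -1.32 ± 0.15). FMA, which ends the divisions of the guard cell lineage, had 82.5 ± 27.8 and 159 ± 39.6 in the same order. TCP15, YAB3 and YAB5, transcription factors of leaf growth and polarity that were chosen after their values were seen, had mean signals of 174, 122 and 79.5 after dehydration, against 507, 295 and 223 in controls. NGA3, a leaf regulator also chosen after its values were seen, rose to 138 ± 30.7 after dehydration, against 10.5 ± 3.6 in controls. In these whole samples, fewer cells of a type and less RNA per cell cannot be told apart.

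**Figure D4:**
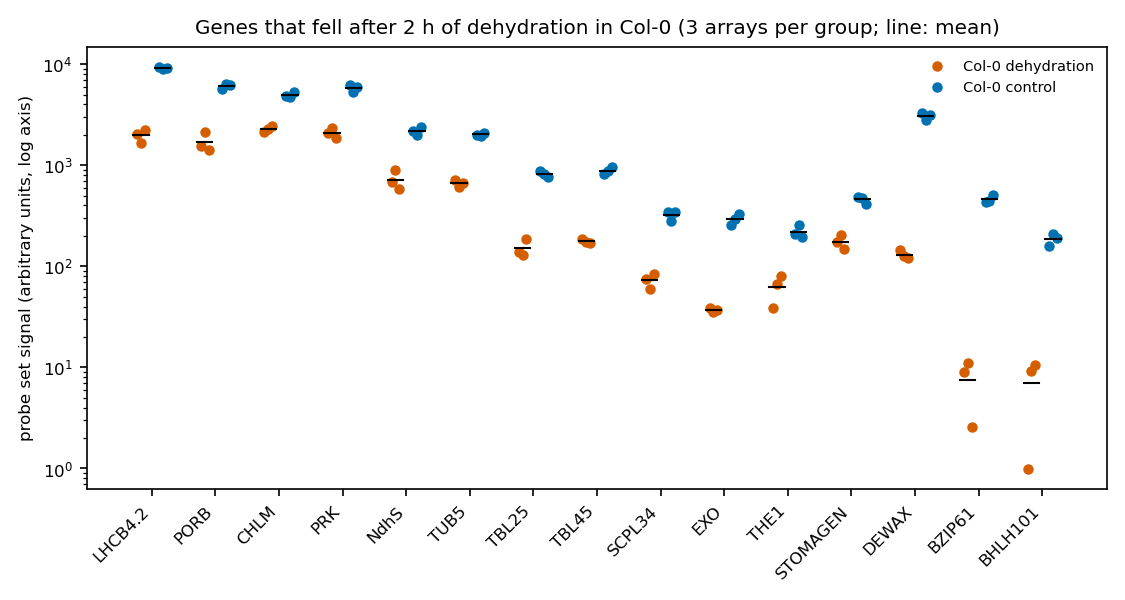
Signal on each of 3 arrays per group (points, log axis, arbitrary units) and group mean (line) for 15 genes that fell, with dehydrated Col-0 in orange to the left of Col-0 control in blue. The dehydrated arrays lie below the control arrays in every gene shown, from LHCB4.2 at 1973 against 9216 to BZIP61 at 7.56 against 462. For genes taken by rank, arrays that do not overlap were a condition of choice.

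Transcription factor families held a few genes with very large changes. Of 22 bZIP factors 3 were called higher (13.6%) and 5 lower (22.7%), near the 13.5% and 23.5% of all probe sets. BZIP61 read 9.04, 11 and 2.59 in dehydrated plants and 435, 447 and 506 in controls, a log2 change of -4.36 ± 0.15 (limma, adjusted p = 7.3e-10). Its close relative BZIP34 read 1.14, 0.664 and 1.42 after dehydration and 46.3, 40.5 and 66.4 in controls, so both were near the lowest signals of the arrays after dehydration. BZIP28, which is released from the endoplasmic reticulum membrane when proteins misfold, rose with a log2 fold change of 0.76 ± 0.14.

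Among 7 WRKY factors, regulators of defence and senescence, 3 were lower and 1 higher. WRKY53 and WRKY22 fell to 116 ± 34.9 and 49.6 ± 20.3 after dehydration, against 529 ± 116 and 173 ± 21.5 in controls. Of 7 bHLH factors measured by name, most of them known in iron homeostasis, 3 were lower and 4 were not called. The iron regulators bHLH121, ILR3 and bHLH34 were among those not called. BHLH101, which is induced by iron shortage, read 0.983, 9.3 and 10.6 after dehydration and 159, 208 and 190.5 in controls (-3.16 ± 0.19 on the log2 scale). The upstream factors bHLH115 and bHLH104 fell by 0.63 ± 0.12 and 0.53 ± 0.17. The call of bHLH104, whose groups overlapped, was lost under 8 alternatives.

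MADS-box factors, known mainly from flower development, were called in 6 of 42 cases, 4 higher (9.52%) and 2 lower (4.76%). Both shares were below the 13.5% and 23.5% of all probe sets. AGL87 had 97.5 ± 22.9 after dehydration and 376 ± 89.8 in controls. The largest change in the list was that of AT1G30260, with 4143, 4529 and 3272 in dehydrated plants and 776, 882 and 698 in controls. The annotation gives the name AGL79 both to this locus and to AT3G30260, which was not called, so its place among MADS-box factors is doubtful. With array medians subtracted, 9 of these genes were called higher in place of 4. Of 15 IQ-domain proteins, which bind calmodulin, 3 were higher and 6 lower. IQD22 had 818 ± 142 after dehydration and 173 ± 9.31 in controls, and iqd21 had 178 ± 25.4 and 701 ± 47.2. The calmodulin-like gene CML39 (AT1G76640) read 227, 279 and 364 after dehydration and 1.9, 28.3 and 42.7 in controls.

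Among the 10 genes that gained most signal and the 10 that lost most, 10 carry no name in the annotation. AT1G52720 had 6111 ± 1089 after dehydration and 765 ± 85.3 in controls, and AT5G05600 had 5292 ± 113 and 659 ± 245. AT5G61820, AT3G05640 and AT3G09440 reached 4610 ± 809, 4335 ± 269 and 4666 ± 218 after dehydration, against 468 ± 12.8, 243 ± 21 and 792 ± 52.6 in controls. ZW9 had 5403 ± 151 and 1127 ± 75.1. The largest loss among those probe sets was that of AT3G22240, with 4207 ± 378 after dehydration and 12692 ± 1496 in controls. AT3G62550 fell to 861 against 7819 (means), AT3G15450 to 908 ± 174 against 7525 ± 699, AT2G45180 to 2809 ± 454 against 9439 ± 694 and AT5G38980 to 980 ± 82.2 against 5563 ± 471. AILP1, named for its likeness to an aluminium-induced protein, had 2802 ± 542 after dehydration and 7911 ± 581 in controls, and CCL had 4943 ± 895 and 9302 ± 1050.

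Some large changes fell outside these groups. EULS3, a lectin, had 1734 ± 94.3 after dehydration and 191 ± 3.26 in controls, and the jacalin-related lectin JAL23 had 1276 ± 240.0 and 184 ± 112. ATC, a relative of the flowering regulator TFL1, read 107, 104 and 95.1 after dehydration and 1.81, 2.82 and 2.93 in controls. The tetraspanin TET10 fell to 61 ± 21.6 against 318 ± 22.2 in controls, and 2A6 to 132 ± 14.5 against 619 ± 78.7. P1R3 and mTERF9 (AT5G55580), a factor of chloroplast gene expression, were dim, with 7.85 ± 6.06 and 8.25 ± 5.95 after dehydration, against 88.6 ± 2.75 and 82.2 ± 10.9 in controls. QQS, a gene known to influence starch content and chosen after its values were seen, fell to 76.7 ± 36.5 against 288 ± 27.3.

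Most of these changes were also called in siz1-3. Of the 1416 probe sets called at least 2-fold higher in Col-0, 1291 (91.2%) were called higher in siz1-3, and of the 1813 at least 2-fold lower, 1672 (92.2%) were called lower. Over all probe sets, 15.3% were called higher in siz1-3 and 31.8% lower. The interaction of genotype and dehydration, which tests whether the log2 changes differ, was called for 2003 of all 22746 probe sets (8.81%) and for 744 of the 3229 probe sets changed at least 2-fold in Col-0 (23%). The selection was made in Col-0, which favours changes that are large there. Among the 181 genes described here, 47 had a called interaction, and in 9 of them the log2 changes had opposite signs in the 2 genotypes. In 7 of these 9 the change was called in both genotypes, and in UF3GT and DFR it was called in Col-0 alone.

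**Figure D5:**
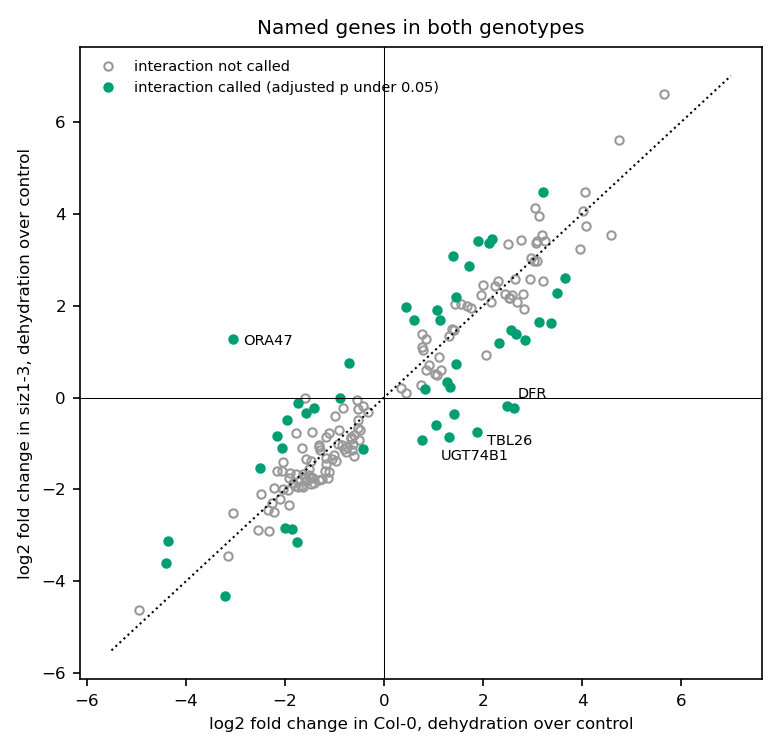
Log2 fold change of the 181 described genes (dehydration over control) in Col-0 on the x axis and in siz1-3 on the y axis, with filled points for the 47 genes whose interaction was called and a dotted line where both are equal. Most points lie near the line, and ORA47, with -3.05 in Col-0 and 1.28 in siz1-3, lies farthest from it.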

How the data were processed

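Per the labels, RNA was extracted with TriZOL and labelled with the MessageAmp II-Biotin Enhanced kit. The deposited values are one intensity per probe set on a linear scale, per the values of the table, scaled so that each array's mean without its top and bottom 2% is 250.02. The sources used here do not state how probes were summarised, and no detection calls were used. The table holds 22810 probe sets, of which 64 controls were left out. Log2(intensity + 16) was fitted with limma 3.58.1 in R 4.3.3 (lmFit, eBayes) over all 12 arrays with 1 mean per group, and p-values were Benjamini-Hochberg adjusted over 22746 probe sets. A pseudocount of 16 understates the change of dim probe sets. The fit was tested on simulated data. With 3 arrays per group, their number limits precision.

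Names came from the platform annotation and RefSeq's TAIR10.1 gene table: 1 gene is listed for 13513 probe sets, several for 503 and none for 8730, and 13436 matched RefSeq. Of the 13350 genes so measured, 1677 have a symbol or a description, which limits every group to its named members. A gene with several probe sets is given by its brightest. The gene groups and the named genes were chosen with earlier results of these data known: 99 lists and families, and 24 families added after the values were seen, of which 78 had at least 3 measured genes. From these, 50 memberships were removed as other genes or word fragments. The rule for named genes gave the 4 largest changes of each group, ranks 11 to 30 in each direction and the 10 largest gains and losses of signal. The ranks ran over called annotated genes whose 3 dehydrated and 3 control arrays did not overlap. Gains and losses were ranked over called probe sets listed for exactly 1 gene. In the groups described, the first part of the rule gave 167 genes, of which 147 were called and 113 of those are given with values. The rest stand only in the counts, where a count is given. With values the text gives 150 called genes that the rule names and 31 chosen after their values were seen. Alternatives were other scalings, a floor, a filter on dim probe sets, Col-0 arrays alone, a replicate block and each Col-0 array left out.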

Additional observations from a re-analysis of the deposited data

Results flagged for a closer look

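For 47 of the 181 described genes the change on dehydration differed between Col-0 and siz1-3, tested as the interaction of genotype and dehydration in limma at an adjusted p under 0.05. Values are the log2 change in Col-0 minus that in siz1-3. Among all probe sets 8.81% had such a call, and among those called and changed at least 2-fold in Col-0 23% did. Of the 47, 32 kept the call under every alternative that gave one and 15 lost it under at least 1. The alternatives left out each Col-0 array in turn but no siz1-3 array. Groups of 3 arrays were not otherwise examined for single outlying arrays.

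The changes had opposite signs in 9 genes, of which UF3GT and DFR were not called in siz1-3. ORA47, the activator of jasmonate synthesis, had the largest difference at -4.33, with -3.05 in Col-0 and 1.28 in siz1-3 (limma, adjusted p = 9.51e-06). OPCL1 of the same pathway differed by -1.47. The anthocyanin genes UF3GT and DFR differed by 2.85 and 2.68, with -0.22 and -0.19 in siz1-3, and the flavonol glycosyltransferases UGT78D1 and UGT78D2 by 1.64 and 1.68. UGT74B1 of glucosinolate synthesis differed by 2.16, the wall acetylation protein TBL26 by 2.62 and CYP84A4 by 1.76.

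Genes with a smaller log2 rise in siz1-3 were UGT87A2 at 1.74, WSD1 at 1.58, 4CL8 at 1.48, UGT84A3 at 1.28, LKR/SDH (AT4G33150) at 1.2, AT1G30260 at 1.12, CYP71B37 at 1.11, MGL at 1.1, EXPA16 at 1.06, scpl48 at 0.95, NAMT1 at 0.74 and UBC18 at 0.64. Those with a smaller log2 fall in siz1-3 were EXLA1 at -1.62, BZIP34 at -1.46, P1R3 at -1.32, BZIP61 at -1.24, WRKY22 at -1.24, HIS1-3 at -1.18, UGT85A4 at -0.97, WRKY53 at -0.95, ATG8E at -0.87 and DEWAX (AT5G61590) at -0.80. In siz1-3 the rises of scpl48 (0.33) and CYP71B37 (0.23) were not called, and UBC18 changed by 0.18. ATG8E, EXLA1 and HIS1-3 hardly fell in siz1-3, with log2 changes of -0.01, -0.12 and -0.24. Levels also differed between genotypes for some of these genes. BZIP34 and P1R3 were already dim in siz1-3 controls, at 8.03 and 27.6, against 51.1 and 88.6 in Col-0 controls. How far this limited their falls was not tested. UGT87A2 averaged 1780 in Col-0 and 4272 in siz1-3 after dehydration, and 157 and 1365 in controls. WRKY53 averaged 116 and 849 after dehydration and 529 and 1839 in controls, in the same order. LKR/SDH was lower in siz1-3, at 2028 and 434 after dehydration and 170 and 76.6 in controls.

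Genes with a larger log2 rise in siz1-3 included 4 LEA proteins and dehydrins, COR47 at -1.69, LEA27 (AT2G46140) at -1.54, LTI30 at -1.27 and COR15A at -1.09. COR47 averaged 17007 in Col-0 and 14992 in siz1-3 after dehydration, and 6436 in Col-0 and 1759 in siz1-3 in controls. LTI30 averaged 4081 and 3983 after dehydration and 896 and 352 in controls, and COR15A 12690 and 2775 after dehydration and 8371 and 865 in controls, in Col-0 and siz1-3 in that order. LEA27 was higher in siz1-3 in both conditions, at 139 and 1412 after dehydration and 98.8 and 350 in controls. The others were CCR2 at -1.51, SWEET4 at -1.26, IQD22 at -1.23, ATG8H at -1.15, IAA30 at -0.84, BGLU16 at -0.73 and MCCA at -0.58. Those with a larger log2 fall in siz1-3 were AT2G45180 at 1.40, AT3G62550 at 1.09, CRR42 at 1.02, BGLU44 at 0.84 and PSAN at 0.69. Calls lost under at least 1 alternative were those of NAMT1, MGL, MCCA, UBC18, UGT85A4, CYP71B37, 4CL8, BGLU16, PSAN, DEWAX, BZIP34, WRKY53, WRKY22, AT3G62550 and P1R3.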

How the results depend on the processing

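The number of probe sets called higher after dehydration was 3081 in Col-0 and that called lower was 5348. Subtracting array medians gave 4993 higher and 3506 lower, since it raises all changes, and quantile normalization gave 3706 and 4384. The other counts stayed within 1.5 times of the main ones, including the counts of at least 2-fold changes (1416 higher and 1813 lower) under all alternatives: with medians subtracted these were 1802 and 1258. Leaving out 1 Col-0 array at a time gave 2806 to 2932 higher, 4736 to 5024 lower, 1407 to 1436 at least 2-fold higher, 1832 to 1892 at least 2-fold lower and 1445 to 1885 interactions, against 2003 with all arrays. With the replicate block, 3032 were higher, 5272 lower and 1783 had a called interaction. Same-numbered arrays were no more than weakly correlated (0.020 to 0.039), though each correlated best with its own number. The interaction cannot be fitted on the Col-0 arrays alone. Of 181 described genes, 166 kept their call under every alternative run, 15 lost it under at least 1, and 0 changed sign. Array-median subtraction ended the most calls, 11 of the 181. With no detection calls, how far dim signals lie above background is unknown here.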
